A study of Mus musculus with 18 samples.

Results

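Amino acids cross membranes through solute carriers, and the genes described here are the mouse carriers of the Slc1, Slc3, Slc6, Slc7, Slc36, Slc38 and Slc43 families. They were chosen by name alone, as protein-coding genes whose symbol starts with one of those family names, leaving out Slc7a1, Slc7a2 and Slc7a11. The rule found 61 of the 33440 genes with a value in the files. A few of them carry something else: Slc6a8 takes up creatine, Slc6a2, Slc6a3 and Slc6a4 take up monoamines, and Slc43a3 is known as a purine base carrier. Slc7a6os fits the rule by its name, yet encodes a factor for nuclear import of RNA polymerase II, and is given apart.

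RNA was measured in 18 libraries from 2 experiments on IRF3, a transcription factor of innate immune signalling, in mouse adipocytes. In the first, stromal vascular fraction (SVF) cells of inguinal fat (iWAT) from IRF3-2D mice aged 4 to 6 weeks were differentiated into adipocytes. These mice carry a constitutively active Irf3 allele that stays silent until Cre acts on it. Cells received AAV-GFP (WT, n = 3) or AAV-GFP-Cre (FI3OE, n = 3) on day 6 and were harvested on day 8, so the WT cells hold the silent allele and the groups also differ by Cre itself. In the second, epididymal fat (eWAT) came from C57BL/6 Ad-NuTRAP mice (WT, n = 6) and FI3KO-Ad-NuTRAP mice (FI3KO, n = 6), which lack Irf3 in cells that express Adipoq-Cre. These male mice were 8 weeks old when a diet with 60% of its energy as fat began, and were kept on it for 8 weeks at 30 °C. RNA was pulled down with tagged adipocyte ribosomes (translating ribosome affinity purification, TRAP), so it is ribosome-bound RNA enriched for, not limited to, adipocytes.

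Amino acid carriers work in a few molecular arrangements. The Slc7 light chains LAT1 (Slc7a5), LAT2 (Slc7a8), y+LAT1 (Slc7a7), y+LAT2 (Slc7a6) and Asc-1 (Slc7a10) reach the plasma membrane bound to a shared heavy chain, CD98 (Slc3a2), and exchange one amino acid for another. Slc1a5 and the sodium-coupled Slc38 carriers bring in glutamine and other small neutral amino acids, which the exchangers can then trade for leucine. Slc36a1, Slc38a7 and Slc38a9 sit on lysosomes, where Slc38a9 takes part in reporting arginine to mTORC1. In adipocytes, Slc7a10 and Slc36a2 are used as surface markers of white and of brown or beige fat cells, respectively. The 7 genes with the greatest changes lie, in GRCm38, at chr4:117834506-117875198 (Slc6a9, plus strand), chr2:84838850-84863594 (Slc43a1, plus), chr19:28835049-28913960 (Slc1a1, plus), chr14:54369442-54417780 (Slc7a7, minus), chr9:107650634-107669530 (Slc38a3, minus), chr8:121881150-121907694 (Slc7a5, minus) and chr8:92960079-93001667 (Slc6a2, plus). Several carriers, Slc7a5, Slc3a2, Slc38a2 and Slc7a11 among them, are known targets of ATF4, the transcription factor of the amino acid response.

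Each library held 21541334 to 40490283 reads. Irf3 itself lay between 56.8 and 57.9 CPM (counts scaled to library size) in WT and between 91.4 and 102 CPM in FI3OE SVF-derived adipocytes. In TRAP its ranges overlapped, at 16.4 to 22.8 CPM in WT and 12.5 to 19.97 CPM in FI3KO, with a call of lower at -0.35 on the log2 scale (edgeR adjusted p = 0.0198). A count over the whole gene does not resolve the exons that Cre removes. Adipocyte markers summed to 13983 to 14541 TPM (transcripts scaled to their length and the library) in WT and 12912 to 13355 TPM in FI3OE cultures (6 of 13 lower and 3 higher), and fibroblast markers to 6997 to 7195 and 6228 to 6471 TPM. In TRAP adipocyte markers summed to 55232 to 73772 TPM in WT and 65364 to 79750 TPM in FI3KO (1 of 13 lower, Lep at -1.63 on the log2 scale, and 5 higher, Retn at 0.96 among them). Fibroblast markers summed to 677 to 1359 and 501 to 750.4 TPM there (1 of 9 lower, Col1a1 at -1.82, and 2 higher, Dcn at 1.36 among them). The part of these shifts in the carrier values was not tested. The SVF cultures also held macrophage markers, with a summed level of 3397 to 3602 TPM over both groups. Of 15 tested there, 3 were lower in FI3OE (Mrc1 at -0.87, Itgam at -0.59 and Csf1r at -0.45 on the log2 scale) and 4 higher (Fcgr1, Ctss, C1qa and C1qc), and their part in the carrier values was not tested. In TRAP the 15 macrophage markers summed to 56.9 to 150.0 TPM in WT and 24.6 to 55.9 TPM in FI3KO, and of 12 that could be tested 10 were lower and 1 was higher in FI3KO. FI3KO TRAP replicates 1 and 2 stood apart from replicates 3 to 6 (chi-square per gene of 114 to 274 between the sets and 15.9 to 85.2 within replicates 3 to 6). In WT the sets were less distinct, since replicates 3 and 5 differed by 130.1. WT replicates 1 and 2 differed less from each other (chi-square per gene of 2.43) than any other pair of WT libraries (8.38 to 134), though by more than sampling noise. They were kept as 2 samples. The labels call all samples biological replicates and say no more of their origin.

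In the WT groups, 31 of the 61 genes reached at least 1 TPM in every SVF library and 24 did so in every TRAP library. All 24 were among the 31. The 7 genes that passed in SVF-derived adipocytes alone were Slc1a6, Slc38a1, Slc38a4, Slc6a20b, Slc6a9, Slc7a15 and Slc7a3. The remaining 30 genes passed in neither. They include 13 with at most 3 reads in every library, among them the brain and gut carriers Slc6a4, Slc6a5, Slc6a14 and Slc7a9. The WT groups differ in depot, culture, diet and RNA method, so their levels are set side by side as a description.

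Slc1a5 (ASCT2), a neutral amino acid exchanger that takes up glutamine, was the most abundant of these transcripts in both. Its level was 1854 ± 108 TPM (SD, n = 6) in WT TRAP and 647 ± 30.6 TPM (SD, n = 3) in WT SVF-derived adipocytes. That was 48.2% of the summed TPM of all 61 genes in TRAP and 28.0% in SVF. Next in TRAP came Slc7a10 (Asc-1, an exchanger of serine, glycine and alanine) at 573 ± 68.3 TPM and Slc38a10 at 499.7 ± 32.2 TPM, whose ranges overlapped (481 to 667 TPM and 459 to 544 TPM). Below them lay Slc3a2 at 177 ± 14.8 TPM, the GABA and taurine carrier Slc6a13 (GAT2) at 159 ± 16.5 TPM and Slc36a2 at 146 ± 20.9 TPM, again with overlapping ranges.

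The order was different in WT SVF-derived adipocytes. There Slc3a2 (223 ± 14.4 TPM), Slc38a10 (221 ± 5.67 TPM) and Slc36a2 (204 ± 8.77 TPM) followed Slc1a5, and the range of Slc3a2 (211 to 239 TPM) overlapped that of each of the others. Slc7a10 stood at only 36.6 ± 4.58 TPM and Slc6a13 at 2.57 ± 0.291 TPM. Carriers that stood higher in the cultures than in TRAP included LAT1, Slc7a5 (82.8 ± 2.21 against 6.59 ± 1.85 TPM), the glycine carrier Slc6a9 (42.4 ± 4.40 against 0.860 ± 0.253 TPM) and the taurine carrier Slc6a6 (109 ± 12.8 against 15.6 ± 1.15 TPM). Slc38a3 (SNAT3), a glutamine carrier of liver, kidney and brain, had no read in any of the 6 SVF libraries and 21 to 252 reads in the WT TRAP libraries. For Slc7a10, Slc6a13, Slc7a5, Slc6a9, Slc6a6 and Slc38a3 the ranges did not overlap between the WT groups.

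**Figure D1:**
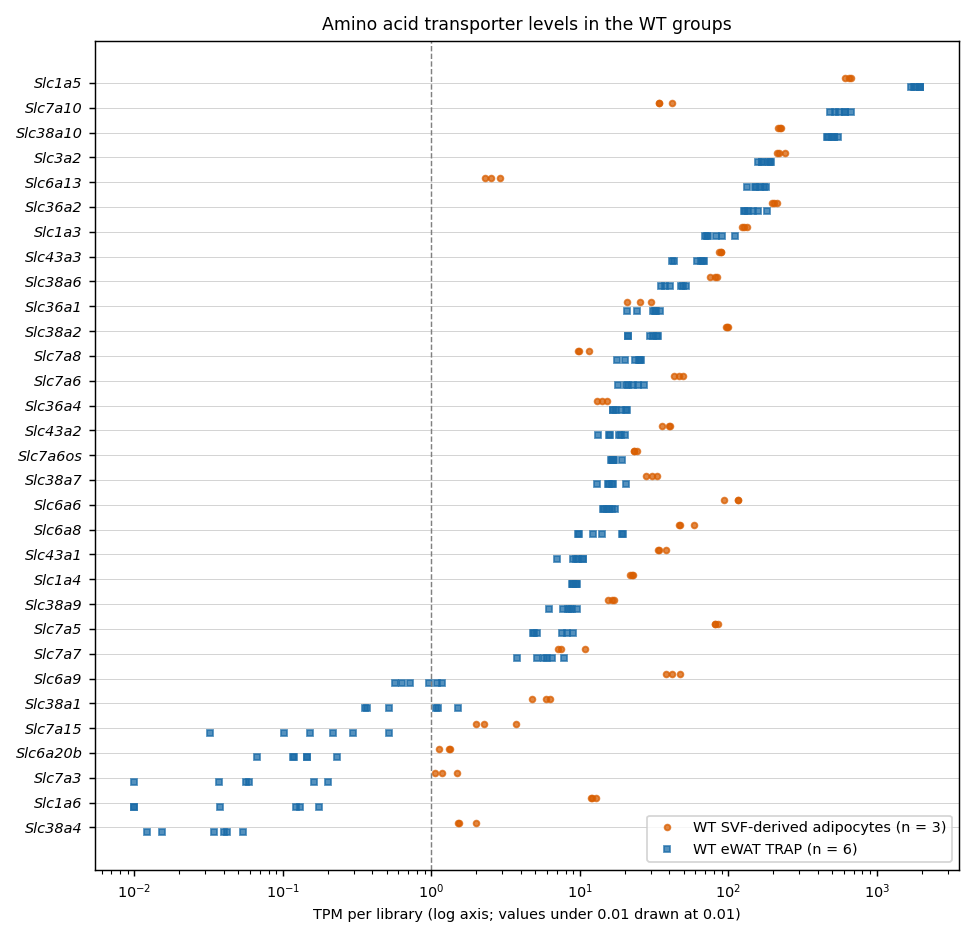
Level in TPM (log axis) of each of the 31 genes expressed in a WT group, with 1 point a library: circles for WT SVF-derived adipocytes (n = 3), squares for WT eWAT TRAP (n = 6), and a dashed line at 1 TPM. Slc1a5 is at the top of both groups, while Slc7a10 and Slc6a13 stand far higher in TRAP and Slc7a5, Slc6a9 and Slc6a6 far higher in the cultures.

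The comparison of FI3OE with WT SVF-derived adipocytes asks how active IRF3 changes these transcripts in cultured cells. Most that changed were lower in FI3OE, led by Slc6a9, Slc43a1 and Slc7a5. Of 35 genes with enough reads to test, 15 fell and 7 rose at an adjusted p of at most 0.05, and 13 did not pass. Among all 16105 genes tested the share that passed was 37.0%, with 16.8% lower and 20.2% higher. The members' shares were 62.9% in all, 42.9% lower and 20% higher. When a change of 1 or more on the log2 scale was also required, 3 of 35 passed, 2 lower and 1 higher, against 3.62% of all genes (1.63% lower and 1.99% higher). Values of the 3 FI3OE and 3 WT libraries did not overlap for 24 of the 35 genes, 17 of them lower and 7 higher (49.5% of all genes, 23.8% lower and 25.7% higher). The median log2 fold change was -0.20 over the 35 and 0.00 over all genes.

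Slc6a9 (GLYT1), which takes up glycine, changed most among the genes that fell. It stood at 34.4, 34.9 and 35.5 CPM in the WT libraries and at 13.5, 13.7 and 14.4 CPM in FI3OE. The 3 FI3OE libraries were all below the lowest WT library, and the log2 fold change was -1.33 ± 0.05 (SE, adjusted p = 1.0e-08). The reads that Salmon assigned to its main transcript of WT cells, 40.6% of the gene there, went from 266 to 417 a library in WT to 0 to 56.2 in FI3OE. A second protein-coding transcript also lost share, from 24.7% to 13.1% (mean of 204 and 53.0 reads). Others took a larger share in FI3OE, 1 of them from 17.6% to 44.6% of the gene (mean of 146 and 181 reads) and another from 5.88% to 27.8% (mean of 48.7 and 113 reads). The assignment to transcripts was not tested. An exon of Slc6a9 shares 1258 bases with Ccdc24 on the other strand, and the libraries do not keep strand.

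Slc43a1 (LAT3), a carrier of leucine and other large neutral amino acids, fell from 30.2, 30.5 and 33.8 CPM to 12.5, 13.9 and 15.5 CPM. The groups were far apart, with a log2 fold change of -1.16 ± 0.08 (adjusted p = 6.12e-07). Slc7a5 (LAT1) carries the same amino acids and fell from 113, 120.3 and 129 CPM to 62.2, 66.6 and 69.3 CPM. Its log2 fold change of -0.87 ± 0.05 (adjusted p = 2.41e-07) was just under the size cutoff. The heavy chain Slc3a2 went from 133, 133 and 138 CPM to 101, 112 and 112 CPM, a smaller fall of 0.31 ± 0.05 on the log2 scale (adjusted p = 2.76e-04).

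Of the light chains that pair with Slc3a2, Slc7a10 also fell, from 22.4, 24.1 and 25.7 CPM to 16.9, 16.9 and 18.7 CPM (log2 fold change -0.46 ± 0.07, adjusted p = 3.32e-04). Slc7a8 (LAT2) was lower as well, at -0.26 ± 0.09 (adjusted p = 0.0445), and Slc7a7 was higher, at 0.34 ± 0.10 (adjusted p = 0.0196). Neither call held in every fit that left out a library, though the log2 fold changes kept their sign (-0.35 to -0.17 and 0.30 to 0.40). Slc7a8 had an adjusted p between 0.0562 and 0.203 without FI3OE replicate 1 or 3 or WT replicate 1 or 3, and Slc7a7 between 0.0560 and 0.0650 without FI3OE replicate 2 or WT replicate 1 or 2. Slc7a6 did not pass (log2 fold change -0.08 ± 0.06, adjusted p = 0.296), and its sign turned to 0.20 when transcript lengths entered as an offset. Slc43a2 (LAT4) had a mean of 67.1 CPM (SD 1.31) without Cre and 58.5 CPM (SD 3.67) with it (n = 3, edgeR adjusted p = 0.00692). With the length offset its log2 fold change was -0.0025 (adjusted p = 0.991), and its TPM ranges overlapped. The same offset ended the calls of Slc7a7 (0.26, adjusted p = 0.368) and Slc7a8 (-0.29, adjusted p = 0.0764).

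Among the glutamine and small neutral amino acid carriers, Slc1a5 moved from 647, 684 and 693 CPM to 474, 500.1 and 507 CPM. This was a fall of 0.45 ± 0.04 on the log2 scale (adjusted p = 4.96e-06), in the most abundant carrier of these cells. Slc1a4 (ASCT1), a serine and alanine exchanger, stood at 43.1, 45.0 and 45.5 CPM in WT and at 34.1, 34.1 and 34.2 CPM in FI3OE (log2 fold change -0.38 ± 0.04, adjusted p = 3.49e-05). Slc38a2 (SNAT2), which responds to amino acid shortage in many cells, went from 251, 257 and 267 CPM to 201, 218 and 219.7 CPM (log2 fold change -0.28 ± 0.04, adjusted p = 4.19e-04). All 3 genes had every FI3OE library below every WT library. Slc38a6 was lower by 0.16 ± 0.05 (adjusted p = 0.0192), and did not pass without FI3OE replicate 3 or WT replicate 1 or 2 (adjusted p = 0.0594 to 0.0816), nor with the length offset (-0.10, adjusted p = 0.187). The other Slc38 genes tested, Slc38a1, Slc38a4, Slc38a7, Slc38a9 and Slc38a10, did not pass.

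The glutamate carriers moved in both directions. Slc1a3 (GLAST) fell from 188, 199 and 209 CPM to 138, 145 and 149.6 CPM, with a log2 fold change of -0.46 ± 0.05 (adjusted p = 1.64e-05). Slc1a1 (EAAT3), which also takes up cysteine, rose from 1.11, 1.73 and 2.05 CPM to 3.63, 4.14 and 4.98 CPM. Its log2 fold change of 1.36 ± 0.22 (adjusted p = 4.53e-04) was the only rise past both cutoffs, at a low level of 24 to 52 reads a WT library. One of its exons shares 1524 bases with 4430402I18Rik on the other strand. Slc1a6 (EAAT4) rose by 0.47 ± 0.10 (adjusted p = 0.00409), from 7.77 ± 0.798 CPM to 10.8 ± 0.736 CPM (SD, n = 3). With the length offset the Slc1a6 value was 0.21 and did not pass (adjusted p = 0.251).

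Of the Slc36 carriers, which move small amino acids together with protons, Slc36a1 rose from 43.6, 45.4 and 46.6 CPM to 59.1, 59.5 and 63.4 CPM (log2 fold change 0.42 ± 0.05, adjusted p = 2.23e-05). Slc36a2 rose from 222, 223 and 236 CPM to 267, 271 and 284 CPM (log2 fold change 0.27 ± 0.04, adjusted p = 2.62e-04). In CPM neither had a library within the WT range. With the length offset Slc36a1 did not pass (0.35, adjusted p = 0.0801), and its TPM overlapped, at 20.8 to 30.3 TPM in WT and 27.4 to 33.3 TPM in FI3OE. Slc36a4 did not pass (-0.07 ± 0.05, adjusted p = 0.279). Slc43a3 rose by 0.27 ± 0.04 (adjusted p = 4.43e-04).

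In the Slc6 family, the taurine carrier Slc6a6 fell from 170.0, 177 and 182 CPM to 129.7, 133 and 135 CPM (log2 fold change -0.41 ± 0.04, adjusted p = 8.82e-06). The creatine carrier Slc6a8 was slightly higher, at 67.9 ± 3.05 CPM against 58.7 ± 1.77 CPM (SD, n = 3, edgeR adjusted p = 0.00303), but did not pass with the length offset (0.23, adjusted p = 0.198). Slc6a13 was lower at 2.21 ± 0.313 CPM in WT and 1.27 ± 0.217 CPM in FI3OE (adjusted p = 0.0130, and 0.0592 without WT replicate 2). Slc6a20b, an imino acid carrier, was lower by 0.58 ± 0.13 (adjusted p = 0.00569), but 1 of its exons shares 1800 bases with Sacm1l on the other strand, and reads can also be divided between it and its close paralog Slc6a20a. Slc7a3, a cationic amino acid carrier, stood at 1.52 ± 0.224 CPM in WT and 0.887 ± 0.349 CPM in FI3OE (SD, n = 3) and missed the cutoff (edgeR adjusted p = 0.0707). With a library left out its log2 fold change ranged from -1.12 to -0.52 (edgeR adjusted p = 0.0230 to 0.207). The remaining genes without a call, Slc1a2, Slc6a17, Slc7a15, Slc7a4 and Slc7a6os, had adjusted p of 0.233 to 0.863.

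**Figure D2:**
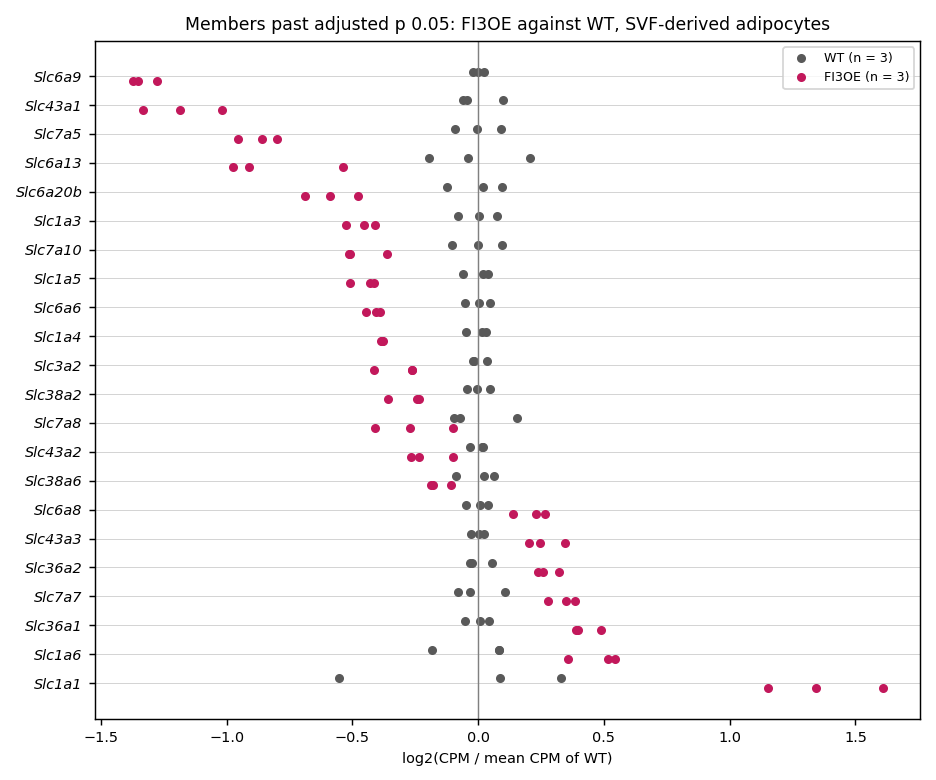
Each of the 22 genes past an adjusted p of 0.05 in SVF-derived adipocytes, with log2 of its CPM over the WT mean in each library (grey WT, n = 3, and magenta FI3OE, n = 3). For all 22 genes the FI3OE points lie to one side of the WT points, from Slc6a9 at the low end to Slc1a1 at the high end.

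Genes of the amino acid response that are not carriers were counted beside them. Of 27 ATF4-linked genes, all tested, 21 fell and 4 rose in FI3OE, and the median change was -0.44 on the log2 scale. Trib3, a target of ATF4 and CHOP, went from a mean of 96.2 to 24.6 CPM (log2 fold change -1.95 ± 0.08, adjusted p = 1.56e-08). The serine synthesis enzyme Phgdh (-1.45 ± 0.05) and Atf4 itself (-0.41 ± 0.04) fell too, while Gdf15 (1.10 ± 0.10), Atf3 (0.77 ± 0.09), Sesn2 (0.41 ± 0.04) and Ddit4 (0.41 ± 0.15) rose. Of the 20 other amino acid carriers tested, 8 fell and 5 rose. Those that fell include the cystine exchanger Slc7a11 (-0.81 ± 0.09, adjusted p = 2.07e-05), the cationic carrier Slc7a1 (-0.40 ± 0.05) and the mitochondrial serine carrier Sfxn1 (-0.76 ± 0.04). The 5 that rose were Slc25a13 (0.66 ± 0.15), Slc15a3 (0.59 ± 0.08), Slc25a12 (0.27 ± 0.07), Sfxn3 (0.24 ± 0.05) and Mfsd12 (0.23 ± 0.05). Of 30 genes of amino acid sensing by mTORC1, 9 rose and 4 fell, and the median was 0.08. Over all genes tested 20.2% were higher and 16.8% lower.

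Promoter windows from 250 bases before to 50 bases after the gene start were found for 44 of the 61 genes in the RefSeq table (GRCm38.p6). They were searched on both strands for TGATGNAA, an element bound by ATF4 with C/EBP proteins, and for the IRF motif of 2 GAAA repeats with 2 free bases between them. TGATGNAA occurred in 3 of the 44 genes (6.82%, against 4.51% of 27025 genes), namely Slc1a4, Slc7a7 and Slc6a21, and the IRF motif in 0 of 44 (3.99% of all genes). Slc1a4 and Slc7a7 were called in both experiments, though the FI3OE call of Slc7a7 did not hold in every fit that left out a library. Stretches of their windows, 104 and 158 bases long, are therefore shown. Each is part of its window, printed 5′ to 3′ on its own strand up to the end of the match nearest the gene start, with capitals for TGATGNAA (read on the opposite strand in Slc1a4). Slc1a4 is at chr11:20332710-20332813 and Slc7a7 at chr14:54417938-54418095, both on the minus strand. The Slc7a7 stretch comes from the RefSeq window chr14:54417895-54418194, upstream of the gene start at 54417780 given earlier. Another RefSeq window of Slc7a7, chr14:54417653-54417952, holds only TGATGCAA.
Slc1a4: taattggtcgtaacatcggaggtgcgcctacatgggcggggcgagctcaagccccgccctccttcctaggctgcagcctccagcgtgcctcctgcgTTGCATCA
Slc7a7: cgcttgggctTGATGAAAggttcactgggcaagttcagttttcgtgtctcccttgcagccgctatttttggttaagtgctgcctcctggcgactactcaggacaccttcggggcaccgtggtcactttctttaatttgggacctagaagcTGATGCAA
A match describes letters in the window and does not show that a factor binds there.

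The comparison of FI3KO with WT TRAP asks how loss of IRF3 in adipocytes changes these transcripts in the eWAT of obese mice. Most that changed were again lower, here in the knockout. Slc3a2 and the light chains named with it were each called lower, though not tested as a group. Of 32 genes tested, 15 fell and 4 rose at an adjusted p of at most 0.05, and 13 did not pass. Over all 13624 genes tested 37.4% passed, with 18.3% lower and 19.1% higher, whereas the members' shares were 59.4% in all, 46.9% lower and 12.5% higher. With both cutoffs 4 passed, all lower (6.61% of all genes, 4.87% lower and 1.74% higher). Of these, Slc38a3 passed the count filter through WT alone, with 0 of 6 FI3KO libraries at the filter's cutoff of 0.321 CPM, and Slc6a2 had 3 of 6 there, so their direction was in part fixed by the filter. With at least 10 reads required in every library, Slc7a7 and Slc7a5 were the 2 that remained. The 6 FI3KO and 6 WT libraries did not overlap for 11 of the 32 genes, 10 of them lower and 1 higher (16% of all genes, 8.53% lower and 7.47% higher). Slc38a3 and Slc6a2 are among these 10 and among the 15 that fell. The median log2 fold change was -0.34 over the 32 and 0.02 over all genes.

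Slc3a2 and the 5 light chains Slc7a5, Slc7a6, Slc7a7, Slc7a8 and Slc7a10 were all called lower. Slc3a2 ranged from 95.6 to 109.9 CPM in WT (median 101) and from 56.2 to 77.7 CPM in FI3KO (median 68.1). Every FI3KO library was below every WT library, with a log2 fold change of -0.57 ± 0.07 (adjusted p = 1.91e-04). Slc7a8 had a range of 33.4 to 49.9 CPM in WT (median 45.8) and of 26.3 to 33.0 CPM in FI3KO (median 28.3), at -0.60 ± 0.10 (adjusted p = 6.96e-04). These ranges came close without meeting.

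Slc7a5 (LAT1) was low in this tissue and fell further. WT libraries lay between 6.95 and 12.6 CPM (median 9.01) and FI3KO libraries between 3.10 and 5.69 CPM (median 4.13), and the log2 fold change was -1.14 ± 0.20 (adjusted p = 9.51e-04). Slc7a10, the second most abundant carrier of WT TRAP, went from 256 to 359.7 CPM (median 306) to 166 to 259.8 CPM (median 222), and the ranges overlapped at their ends. Its log2 fold change was -0.51 ± 0.11 (adjusted p = 0.00432). An exon of Slc7a10 shares 237 bases with Lrp3 on the other strand. A transcript annotated for nonsense-mediated decay held 38.1% of its reads in WT and 38.4% in FI3KO. The decrease of Slc7a6 was small (-0.21 ± 0.07, adjusted p = 0.0341) and did not pass without any one of 7 libraries, FI3KO replicates 2, 4, 5 and 6 and WT replicates 3, 4 and 6 (adjusted p = 0.0536 to 0.0814). Slc7a6 was -0.02 within replicates 1 and 2 (adjusted p = 0.903), and did not pass with the replicate block (adjusted p = 0.0652).

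Slc7a7 (y+LAT1), which exports cationic amino acids in exchange for neutral ones, had the smallest adjusted p of the carriers here. Slc7a7 ranged from 3.68 to 5.31 CPM in WT (median 4.71) and from 1.01 to 2.36 CPM in FI3KO (median 1.398). An exon shares 232 bases with Oxa1l on the other strand. No libraries overlapped, and the log2 fold change was -1.64 ± 0.19 (adjusted p = 1.09e-04). Slc7a7 is also expressed by macrophages, whose markers were lower in FI3KO, and the part of these cells in the decrease was not tested. Within replicates 1 and 2, where the summed macrophage markers were 57.3 and 56.9 TPM in WT and 46.5 and 55.9 TPM in FI3KO, its log2 fold change was -1.20 (adjusted p = 0.0859). Within replicates 3 to 6, where they were 104 to 150.0 TPM and 24.6 to 30.2 TPM, it was -1.88 (adjusted p = 8.64e-06). In TRAP and in the cultures alike, fewer cells of a type and less RNA per cell cannot be told apart.

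Of the glutamine and small neutral amino acid carriers, Slc38a2 (SNAT2) fell without overlap. WT libraries ranged from 53.4 to 81.1 CPM (median 76.0) and FI3KO libraries from 31.1 to 48.3 CPM (median 38.4), at a log2 fold change of -0.86 ± 0.13 (adjusted p = 5.08e-04). Slc1a4 ranged from 16.1 to 17.7 CPM (median 17.0) in WT and from 11.9 to 15.8 CPM (median 13.3) in FI3KO, at -0.31 ± 0.07 (adjusted p = 0.00489). Slc38a10 ranged from 338 to 370.2 CPM (median 354) in WT and from 276 to 337 CPM (median 298) in FI3KO, at -0.24 ± 0.06 (adjusted p = 0.00523). Its log2 fold change was -0.32 within replicates 3 to 6 and -0.07 within replicates 1 and 2 (edgeR adjusted p = 6.72e-04 and 0.530). Slc1a5, by far the most abundant, had a log2 fold change of only -0.01 ± 0.07 (adjusted p = 0.893), with 1757 to 1992 CPM in WT and 1635 to 2049 CPM in FI3KO.

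Slc38a3 (SNAT3) was near 0 in FI3KO and split among its WT libraries. WT replicates 1 and 2 held 6.25 and 6.69 CPM, WT replicates 3 to 6 held 0.804 to 1.37 CPM, and the FI3KO libraries held 0.0839 to 0.292 CPM, which is 2 to 8 reads each. All WT libraries were above all FI3KO libraries in both sets. Since the gene was kept for its WT level, the fitted log2 fold change is given as a description. It was -4.07 ± 0.66 over all 12 libraries, -2.47 within replicates 3 to 6 and -5.81 within replicates 1 and 2. In WT 79.9% of its reads were on 1 protein-coding transcript. Slc38a1 (SNAT1) stood at 0.969 to 3.25 CPM in WT and 0.547 to 1.83 CPM in FI3KO and missed the cutoff (adjusted p = 0.0545, and 0.0132 to 0.131 with a library left out). It passed within replicates 3 to 6 (-1.71, adjusted p = 9.71e-04) and had the other sign within replicates 1 and 2 (0.56, adjusted p = 0.316).

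Both proton-coupled carriers that rose in FI3OE adipocytes fell in FI3KO TRAP. Slc36a2 ranged from 134 to 192 CPM (median 148) in WT and from 76.7 to 116 CPM (median 101) in FI3KO, without overlap, at -0.64 ± 0.10 (adjusted p = 7.17e-04). Slc36a1 ranged from 32.9 to 49.0 CPM (median 46.6) and from 25.1 to 34.3 CPM (median 28.9), with some overlap, at -0.54 ± 0.13 (adjusted p = 0.00564). Slc43a3 ranged from 24.8 to 39.3 CPM (median 35.2) in WT and from 21.9 to 26.2 CPM (median 24.7) in FI3KO, again overlapping, at -0.42 ± 0.11 (adjusted p = 0.0102). Slc36a4 did not pass.

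Slc43a1 (LAT3) rose, in contrast to LAT1. It ranged from 7.08 to 9.02 CPM in WT (median 8.17) and from 9.15 to 19.1 CPM in FI3KO (median 11.8). All 6 FI3KO libraries were above all 6 WT libraries, by a log2 fold change of 0.69 ± 0.17 (adjusted p = 0.00675). It was 0.94 within replicates 3 to 6 and 0.15 within replicates 1 and 2 (adjusted p = 0.00132 and 0.478). Slc1a3 rose by 0.70 ± 0.22 (adjusted p = 0.0259), from 117 to 185 CPM in WT (median 131) to 134 to 375 CPM in FI3KO (median 200.5), with FI3KO replicates 5 and 6 highest. It did not pass without any one of these 2 or of WT replicates 3, 4, 5 and 6 (adjusted p = 0.0535 to 0.0656), nor with the replicate block (adjusted p = 0.0968). Its log2 fold change was 1.08 within replicates 3 to 6 and -0.08 within replicates 1 and 2 (adjusted p for the interaction = 0.0361).

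Among the Slc6 genes, the noradrenaline carrier Slc6a2 was at a low level, and which cells its RNA came from was not tested. WT libraries held 0.501, 0.637, 1.14, 1.17, 1.88 and 3.14 CPM, and FI3KO libraries held 0.162 to 0.4997 CPM (median 0.313), with WT replicate 1 just above the highest FI3KO library. WT libraries held 15.3 to 82.2 reads of it. Because its WT level carried it past the filter, the fitted log2 fold change is again a description, at -2.07 ± 0.45 over all libraries, -2.41 within replicates 3 to 6 and -0.85 within replicates 1 and 2. Slc6a6 fell by 0.43 ± 0.14 (adjusted p = 0.0285), and did not pass without FI3KO replicate 6 or WT replicate 3 (adjusted p = 0.0590 and 0.0558). Its log2 fold change was -0.33 within replicates 3 to 6 and -0.60 within replicates 1 and 2 (adjusted p = 0.157 and 0.0320). Slc6a8 was higher by 0.51 ± 0.19 (adjusted p = 0.0482), with WT replicates 1 and 2 at 25.9 and 26.7 CPM, WT replicates 3 to 6 at 12.4 to 18.3 CPM and FI3KO at 22.1 to 30.7 CPM. This call was lost without any one of 8 libraries, replicates 3 to 6 of either group (adjusted p = 0.0842 to 0.109), and its sign was reversed within replicates 1 and 2 (-0.25). With the length offset it was 0.40 and did not pass (adjusted p = 0.116). Slc6a13, the fifth most abundant, did not pass (-0.09 ± 0.11, adjusted p = 0.528).

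Slc7a6os, which is no carrier, was called higher (0.33 ± 0.11, adjusted p = 0.0319), at 8.72 ± 0.875 CPM in WT and 11.0 ± 1.83 CPM in FI3KO (SD, n = 6). Its call was lost without any one of 8 libraries, FI3KO replicates 1, 4 and 6 and WT replicates 1, 2, 3, 4 and 6 (adjusted p = 0.0503 to 0.0728). The other genes without a call were Slc1a1, Slc38a6, Slc38a7, Slc38a9, Slc43a2, Slc6a12, Slc6a20b, Slc6a9 and Slc7a4, with adjusted p of 0.0725 to 0.948. The sign of Slc38a6 (-0.12 ± 0.07) turned to 0.16 with a length offset.

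**Figure D3:**
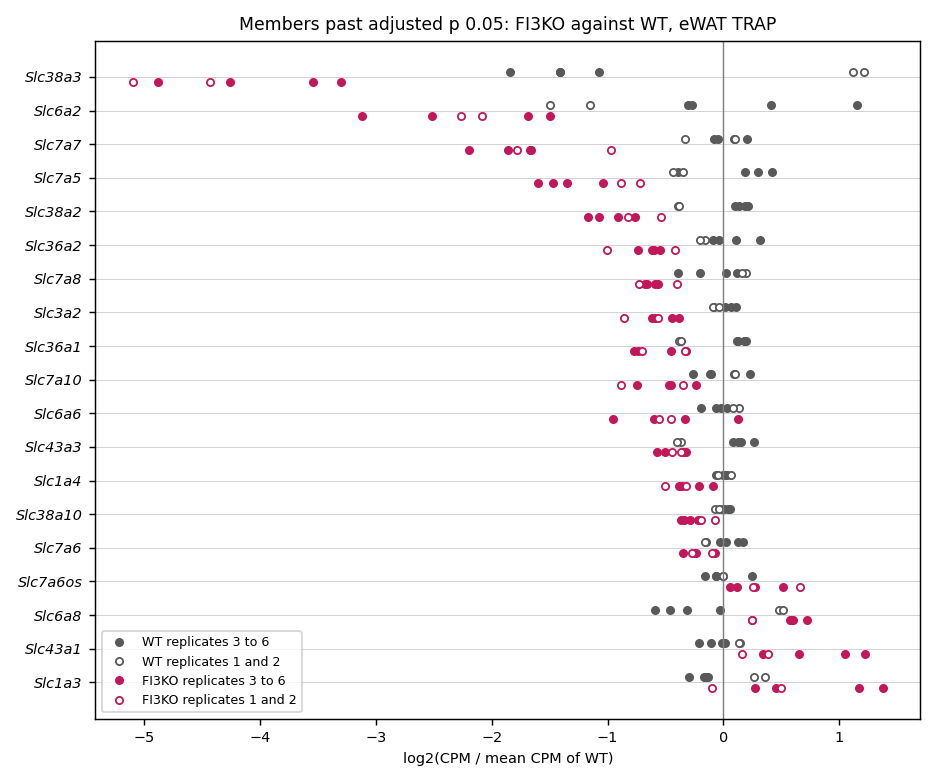
Each of the 19 genes past an adjusted p of 0.05 in TRAP, with log2 of its CPM over the WT mean in each library: grey WT and magenta FI3KO (n = 6 each), open circles for replicates 1 and 2 and filled circles for replicates 3 to 6. Slc38a3, Slc6a2, Slc7a7 and Slc7a5 lie lowest, the first and second of them kept by the count filter mainly for their WT level, Slc38a3 in WT separates by set, and for Slc6a8 and Slc1a3 the WT open circles lie among the FI3KO points.

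The genotype difference varied with the set of libraries. Within replicates 3 to 6, 20 genes passed (50.6% of all genes). Within replicates 1 and 2, with 2 libraries a group, 4 did (3.56% of all genes). These 4 were Slc3a2, Slc6a6, Slc7a8 and Slc38a3, the last kept by the filter for its WT level. The WT libraries of that set differed least of all WT pairs (chi-square per gene of 2.43). Its adjusted p may therefore rest on less than the usual spread between WT samples. An interaction term, added after the data were seen, found 9 of 32 genes whose genotype difference differed between the sets, against 26.5% of all genes. The share among these genes was thus close to that of all genes. Slc38a3, kept for its WT level, was among them. So was Slc7a4, without a call over all libraries (-0.73 within replicates 3 to 6 and 0.34 within replicates 1 and 2, adjusted p for the interaction = 0.0334). The difference was larger within replicates 3 to 6 for Slc38a2 (-1.13 against -0.28, adjusted p for the interaction = 0.00169), Slc7a5 (-1.51 against -0.40, adjusted p = 0.0162), Slc43a3 (-0.59 against -0.02, adjusted p = 0.00462) and Slc36a1 (-0.71 against -0.12, adjusted p = 0.0298). What distinguishes the sets is not given in the sources used here.

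Genes of the ATF4-linked list were called in both directions in TRAP, and the list was not tested as a whole. Of 25 tested, 6 fell and 3 rose, with a median log2 fold change of -0.10. Over all genes 37.4% were called, 18.3% lower and 19.1% higher, so the share called in the list was close to that of all genes. The asparagine synthetase Asns rose from 44.3 ± 14.3 to 74.5 ± 14.3 CPM (log2 fold change 0.75 ± 0.19, adjusted p = 0.00847), whereas the cysteine-forming enzyme Cth (-1.26 ± 0.16) and Aldh18a1 of proline synthesis (-1.16 ± 0.17) fell. Of 19 other amino acid carriers tested, 5 fell and 3 rose. The 3 were Mfsd12 (0.82 ± 0.08), Sfxn1 (0.75 ± 0.11), which fell in FI3OE, and Slc25a22 (0.50 ± 0.07). Slc15a3, a lysosomal peptide and histidine carrier of immune cells, fell from 7.14 ± 4.71 to 0.556 ± 0.282 CPM (adjusted p = 5.91e-04), and Slc7a11 from 0.893 ± 0.369 to 0.334 ± 0.244 CPM (adjusted p = 0.0290). Of 29 mTORC1 sensing genes, 4 rose and 5 fell, with a median of -0.01.

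The experiments share no library, so their calls can be set side by side. Of 29 genes tested in both, 14 were called in both and 5 in neither. The direction was the same for 8 of the 14 (57.1%), against 38.5% of the 2227 genes called in both over the whole table. Lower in both were 7 genes: Slc7a5 (-0.87 in FI3OE and -1.14 in FI3KO), Slc38a2 (-0.28 and -0.86), Slc3a2 (-0.31 and -0.57), Slc7a8, Slc7a10, Slc6a6 and Slc1a4. Slc7a8 was not called in FI3OE with the length offset or with certain libraries left out, and Slc6a6 was not called in TRAP within replicates 3 to 6. Slc7a5 and Slc38a2 had TRAP values of -0.40 and -0.28 within replicates 1 and 2, where neither passed. Slc6a8 was called higher in both (0.21 and 0.51), but neither call held with the length offset and its TRAP value was -0.25 within replicates 1 and 2. Slc36a1, Slc36a2, Slc43a3 and Slc7a7 were called higher in FI3OE and lower in FI3KO. Of these, Slc36a1 and Slc7a7 were not called in FI3OE with the length offset, nor Slc7a7 by DESeq2 (adjusted p = 0.0515), and Slc43a3 and Slc36a1 had TRAP values of -0.02 and -0.12 within replicates 1 and 2. Slc43a1 and Slc1a3 were lower in FI3OE and higher in FI3KO, Slc1a3 there within replicates 3 to 6 but not within replicates 1 and 2. Of the genes past both cutoffs in one experiment, none was so in the other: Slc6a9 and Slc1a1 were not called in TRAP (-0.39 ± 0.32 and 0.54 ± 0.27), and Slc38a3 and Slc6a2 had too few reads to test in the cultures.

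**Figure D4:**
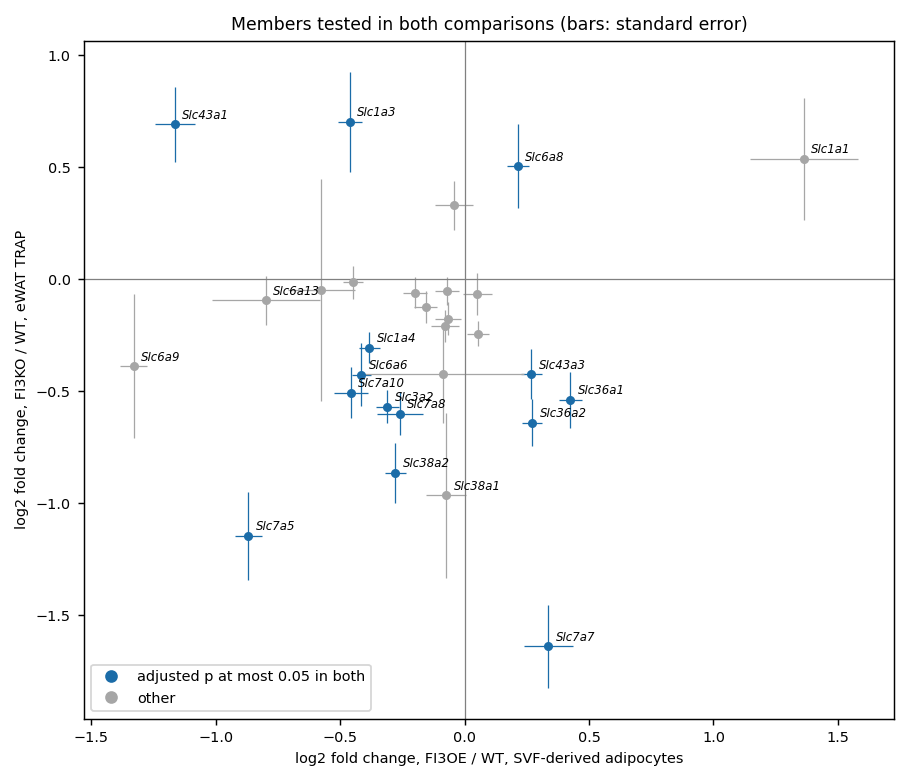
Log2 fold change in FI3OE SVF-derived adipocytes (x axis) against log2 fold change in FI3KO TRAP (y axis) for the 29 genes tested in both, with bars of 1 standard error and blue points for the 14 called in both. At lower left lie 7 blue points, among them Slc7a5 at -0.87 and -1.14, with 4 at lower right, 2 at upper left and Slc6a8 alone at upper right.

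Every gene is thus accounted for: 38 of the 61 were tested in at least 1 experiment, 6 of them in the cultures alone and 3 in TRAP alone, and 23 in neither. Those 23 are the 13 with at most 3 reads in any library and 10 with few reads: Slc1a7, Slc38a11, Slc3a1, Slc6a18, Slc6a19, Slc6a20a, Slc6a21, Slc6a7, Slc7a13 and Slc7a14. For these genes the difference was not tested.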

How the data were processed

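Quantified RNA of 18 libraries was used. Per the study's methods and the submitters' processing notes, the authors trimmed reads with fastp, and deposited Salmon 1.4.0 tables with an expected count (estimated reads) and a TPM value per transcript, on mouse GRCm38. Both were summed per gene through GENCODE M21, which matched 117850 of 118733 transcripts, and unmatched transcripts held 0.375 to 1.08% of reads. Libraries were made from double-stranded cDNA without strand marking. Counts per gene were rounded, filtered with filterByExpr, scaled by TMM and tested within each experiment with edgeR 4.0.16 quasi-likelihood tests (R 4.3.3), without covariates, with Benjamini-Hochberg adjustment over all genes tested. Standard errors are the size of the log2 fold change over the square root of F. Cutoffs were an adjusted p of 0.05 and, where stated, a log2 fold change of 1 in size. CPM are scaled by TMM, and levels between genes are compared in TPM only. The script was tested on simulated counts.

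The members and lists were chosen with earlier results of these data known. Named with values are genes expressed in a WT group (at least 1 TPM in every library) or called. For the cultures, genes past both cutoffs and up to 12 with the smallest adjusted p and a mean log2 CPM of at least 1 are given in every sample. For TRAP such genes are given mostly as ranges, with each library in the figure. Alternatives were DESeq2 1.42.0 (size factors and test), other filters, a length offset, robust estimates, leaving out mitochondrial and rRNA genes, 1 fit of all libraries, a replicate block, library sets and leaving out each library. P-values measure the spread between labelled biological replicates. Slc66a1 of the other carriers had no match. Genes sharing exons or reads with another gene are uncertain, and depth covers counting error only.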

Additional observations from a re-analysis of the deposited data

Results flagged for a closer look

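In groups of 6, a library whose gap to its neighbour was large for the group's range (Dixon's criterion) was singled out, which chance does in about 1 in 20 groups. It happened in 2 of 60 groups. Slc7a6os stood at 10.38 CPM in WT TRAP replicate 5, with the other 5 libraries at 7.83 to 8.72 CPM. Slc7a7 stood at 2.362 CPM in FI3KO TRAP replicate 2, with the others at 1.01 to 1.46 CPM. The genotype difference in TRAP differed between the library sets, by the interaction term, for 8 of the named genes. In this comparison 26.5% of all genes did so, and the share among the members tested was close to that. On the log2 scale, replicates 3 to 6 minus replicates 1 and 2, the difference between the sets was 3.34 for Slc38a3, 1.20 for Slc6a8, 1.16 for Slc1a3, -0.57 for Slc43a3, -0.59 for Slc36a1, -0.85 for Slc38a2, -1.10 for Slc7a5 and -2.26 for Slc38a1. The positive value for Slc38a3 means a smaller fitted fall within replicates 3 to 6. This gene passed the count filter through WT alone, so its value follows the split among its WT libraries and is a description.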

How the results depend on the processing

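For FI3OE against WT SVF, the 22 calls became 15 with a length offset (all genes from 37.0% to 23.6% called), 19 to 21 when a library was left out, and 7 in 1 fit of all 18 libraries (9.09% of all genes). The 3 genes past both cutoffs stayed between 3 and 4 in number. For FI3KO against WT TRAP, the 19 calls became 14 to 21 when a library was left out (28.7% to 38.8% of all genes) and 4 within replicates 1 and 2, which hold fewer samples (3.56% of all genes). The 4 past both cutoffs became 7 within replicates 3 to 6, 1 within replicates 1 and 2, and 2 with at least 10 reads required in every library, which removes low genes. They were 4 to 5 when a library was left out. Slc38a3 and Slc6a2, kept by the count filter mainly for their WT level, are among the 4 and among the 7. Slc38a3 is the 1 within replicates 1 and 2. The counts of expressed genes ranged from 28 to 33 in WT SVF (31 to 32 with a library left out) and from 24 to 28 in WT TRAP (24 to 25).

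Signs turned for genes without a call in SVF: Slc7a6 with a length offset (0.20) and Slc7a6os without FI3OE replicate 2 (0.0164, leave-one-out range -0.0834 to 0.0164). In TRAP signs turned for Slc38a6 with a length offset (0.16), for Slc6a13 (0.071) and Slc38a7 (0.05) within replicates 3 to 6, and within replicates 1 and 2 for Slc1a5 (0.0153), Slc1a3 (-0.0772), Slc6a8 (-0.25), Slc38a1 (0.56), Slc6a20b (0.87), Slc6a9 (0.25), Slc43a2 (0.12), Slc36a4 (0.0537), Slc38a9 (0.0252) and Slc7a4 (0.34). With a library left out, Slc1a5 ranged from -0.0522 to 0.0166 and Slc6a20b from -0.46 to 0.19. The cause of these changes was not tested.

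Of the 22 calls in SVF, 6 held under every alternative (Slc1a1, Slc1a4, Slc1a5, Slc43a1, Slc6a9 and Slc7a5), and 14 did so leaving aside the fit of 18 libraries. Of the 19 in TRAP, 2 held throughout (Slc3a2 and Slc7a8), and 14 kept direction and call in every fit that left out a library. The fit within replicates 1 and 2 is among these alternatives, and its WT libraries differed least from each other. With WT replicates 1 and 2 summed as 1 sample, 38.3% of all genes were called and Slc7a6os was not (edgeR adjusted p = 0.0515). The replicate numbers did not pair the libraries: the correlation of same-numbered libraries ran from -0.05 to 0.02 in SVF and from -0.29 to 0.10 in TRAP. With the replicate block 22 members were called in SVF and 15 in TRAP, against 19 without it, and of all genes 35.1% and 26.7%.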
